A study of Rattus norvegicus with 4 samples.

Results

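The expression of 8 genes of antibody recognition and the signalling step just below it was read on arrays of spleen cells from rats given liposomes or saline. The members were the probes, other than controls, whose gene name in the files was Fcgr1a, Fcgr2a, Fcgr2b, Fcgr3a, Fcer1g, Fcgrt, Syk or Inpp5d. All 8 genes were found, with 14 of the 30367 probes on each array. In the liposome group, male WKAH rats 8 to 12 weeks old received liposomes, which are small lipid vesicles; the labels state neither their composition nor their dose. The saline group, injected with saline instead, consisted of rats of the same strain, sex and age range. Each group had 2 arrays, named liposome 1 and 2 and saline 1 and 2 after the numbers in their titles, which read exp1 and exp2 in each group. The main fit did not pair arrays by this number, and counts that changed in a fit with it as a block are given at the end. In both groups spleens were taken at 24 h, cells carrying MHC class II were removed with beads, and cells carrying CD11b/c, an integrin of myeloid cells, were then kept, so the fraction, called splenic macrophages in the series title, was enriched and not pure.

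Fc receptors bind the constant part of antibodies and connect antibody-coated particles to the cell. Activating receptors signal through a tyrosine motif called ITAM, carried for several of them by the common gamma chain, to which the kinase Syk binds, and phagocytosis or cytokine release follows. The inhibitory receptor Fcgr2b carries an opposing motif that recruits the phosphatase SHIP1, and macrophages of the spleen, which clear antibody-coated red cells, are known for both kinds of receptor.

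Of the 12858 genes that could be tested, 1143 (8.89%) passed an adjusted p of 0.05 in limma, 621 (4.83%) being higher and 522 (4.06%) lower after liposomes, and the median log2 fold change of all genes was -0.04. At an unadjusted limma p of 0.05, 4181 of all genes (32.5%) passed, 16% higher and 16.6% lower, which is the background for the unadjusted counts of gene lists given further on. The median spot intensity was 188 and 182 on the liposome arrays and 171 and 175 on the saline arrays, and log2 values correlated over genes at 0.993 between liposome arrays, at 0.989 between saline arrays and at 0.971 to 0.975 between groups. Whether the 2 arrays of a group stem from different rats is not stated, so the p-values reflect the scatter among these 4 samples only. Part of that scatter followed the title number in both groups. The median natural killer marker was higher on the array numbered 2 by 1.43 log2 units among liposome and 1.59 among saline arrays. For T cell markers it was 0.96 and 1.33. The source of the scatter, and whether the rest is technical, was not tested. Changes below are log2 fold changes, liposome minus saline, with limma's standard error (SE, n = 2 arrays per group), and levels are given as multiples of the array's own 75th percentile. Levels of different probes are not comparable, so only changes are set side by side between genes.

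Of the 8 genes 2 passed the test, in opposite directions. Fcgr3a, an activating receptor, fell 5.06-fold, and Fcgr2b, the inhibitory receptor, rose 1.68-fold. That is 2 of 8, 1 in each direction, against 8.89% of all genes. The probe behind the Fcgr2b call also lists the related gene Fcgr2al1. The probe that lists Fcgr2b alone read 1.60-fold higher and did not pass when all probes were tested (limma adjusted p = 0.0592). The other 6 genes did not pass and their fitted changes lay between -0.52 and 0.51. All 14 probes were well above background on all 4 arrays and none was saturated. Groups did not overlap for 7 of the 8 genes, all but Inpp5d, and 3 of these were higher and 4 lower. Over all genes, 65.5% had groups that did not overlap, 30.4% higher and 35.1% lower.

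**Figure D1:**
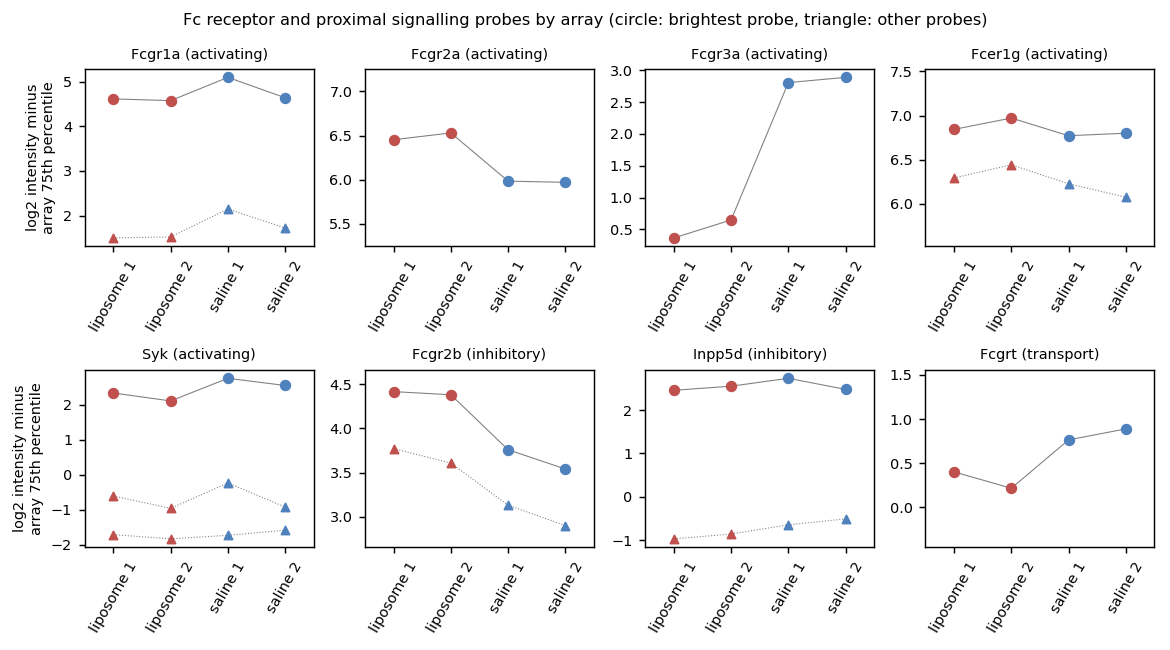
Log2 intensity of each of the 14 probes minus the array's 75th percentile (vertical axis), for liposome 1, liposome 2, saline 1 and saline 2 (horizontal axis), with circles for the brightest probe of a gene and triangles for its other probes; each panel spans at least 2 log2 units on its own scale. Fcgr3a lies at 0.37 and 0.65 on the liposome arrays, below 2.81 and 2.89 on the saline arrays, while both Fcgr2b probes lie higher on the liposome arrays.

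A result on an array is a result on one stretch of a transcript, so 4 probe sequences are printed: those behind the values of Fcgr3a, Fcgr2b and Fcgr2al1, and the second, dimmer probe of Fcer1g. They are the 60-base probes, printed 5′ to 3′ in the sense of the transcript, with positions on the rat assembly rn4 as the files give them.
Fcgr3a (chr13:86877181-86877240, plus strand): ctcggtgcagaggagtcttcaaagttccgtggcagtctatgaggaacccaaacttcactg
Fcgr2b (chr13:86815061-86815120, minus strand): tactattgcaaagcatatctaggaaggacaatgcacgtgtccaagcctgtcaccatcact
Fcgr2al1 (chr13:86921132-86921191, minus strand): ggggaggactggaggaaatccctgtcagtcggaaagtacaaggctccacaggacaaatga
Fcer1g (chr13:87119755-87119814, minus strand): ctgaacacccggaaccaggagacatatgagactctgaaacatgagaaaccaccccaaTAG
The capitals in the Fcer1g probe mark the stop codon that ends its reading frame, so this probe reads the end of the coding sequence, which holds the chain's tyrosine motif. Fcgr2al1 is not 1 of the 8 genes and is shown because it is a close relative of Fcgr2a that probes of Fcgr2a and Fcgr2b also list. No annotation of rn4 was used here, so exon and UTR are not given.

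Among the activating receptors, Fcgr3a changed most. The reference gives this rat gene the synonyms CD16-2 and Fcgr4, so it is the relative of the mouse receptor Fcgr4, which in mouse is found on monocytes, macrophages and neutrophils. Its single probe read 1.29 and 1.57 times the 75th percentile on the liposome arrays, against 6.99 and 7.40 on the saline arrays. Both liposome arrays lay far below both saline arrays, and arrays within a group differed by 0.28 and 0.08 log2 units. The change was -2.34 ± 0.14 (limma adjusted p = 0.00837), and it was -2.44 between the arrays numbered 1 and -2.24 between those numbered 2. Of the 6929 genes that lay lower on the liposome arrays, Fcgr3a had rank 38 by fitted fold. Without liposome 1 or liposome 2 the change was -2.20 and -2.48 and the call was lost, with limma adjusted p = 0.0649 and 0.0657. Without either of these arrays limma called 0 of the 12858 genes, with 2177 and 2397 at an unadjusted p of 0.05.

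Fcgr2a, whose reference synonyms include Fcgr3 and fc-gamma RIII, is a low-affinity receptor for immune complexes. It read 87.6 and 92.4 times the 75th percentile on the liposome arrays, against 63.3 and 62.7 on the saline arrays. The liposome arrays were the higher, without overlap, at +0.51 ± 0.10 or 1.43-fold, and the gene did not pass (limma adjusted p = 0.0519). With median scaling, with normexp background correction, and with probes kept only if well above background on all arrays, it passed (limma adjusted p = 0.0452, 0.0358 and 0.0454). The probe also lists Fcgr2al1, so signal of both genes cannot be told apart. Fcgr2al1 itself read 47.5 and 51.4 on the liposome arrays, against 28.5 and 31.2 on the saline arrays, and rose 1.66-fold (+0.73 ± 0.11, limma adjusted p = 0.0380).

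Fcgr1a, the high-affinity receptor for monomeric IgG, read 24.5 and 23.8 on the liposome arrays, against 34.2 and 24.9 on the saline arrays. Saline 1 stood above the other 3 arrays, and the change of -0.27 ± 0.18 did not pass (limma adjusted p = 0.355). The second Fcgr1a probe showed the same shape, with 2.83 and 2.87 on the liposome arrays against 4.43 and 3.29 on the saline arrays. Its change was -0.42 (limma adjusted p over all probes = 0.186). Without saline 1 the change of the brighter probe was -0.05, and without saline 2 it was -0.50.

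Fcer1g encodes the common gamma chain that activating receptors need for their surface display and signal. It read 115 and 126 on the liposome arrays, against 109 and 111 on the saline arrays, for a change of +0.12 ± 0.10 (limma adjusted p = 0.453). The second probe, which holds the stop codon printed above, changed by +0.22 ± 0.12 (limma adjusted p over all probes = 0.284). Neither probe passed, and both read higher on the liposome arrays without overlap.

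Syk, the kinase that binds the tyrosine motif, read 5.03 and 4.30 on the liposome arrays, against 6.74 and 5.85 on the saline arrays. The arrays did not overlap, and the change of -0.43 ± 0.14 did not pass (limma adjusted p = 0.123). The other Syk probes changed by -0.21 ± 0.28 and -0.11 ± 0.11, with limma adjusted p over all probes of 0.642 and 0.530. All 3 Syk probes lay lower in the mean, and none passed.

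On the inhibitory side, Fcgr2b was read by 2 probes at separate places of the transcript. The brighter probe read 21.4 and 20.8 on the liposome arrays, against 13.5 and 11.6 on the saline arrays. Both liposome arrays were higher, by 0.66 and 0.84 log2 units between arrays of the same number. The change was +0.75 ± 0.12, or 1.68-fold (limma adjusted p = 0.0417). This probe also lists Fcgr2al1, whose own probe rose by a like amount, while the other Fcgr2b probe lists Fcgr2b alone.

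The Fcgr2b probe that lists no other gene was spotted 10 times on each array, which shows the measuring error within an array. Its spots read 13407 to 16054 intensity units on liposome 1 and 12071 to 13684 on liposome 2, against 7819 to 8805 on saline 1 and 7001 to 8051 on saline 2. Every spot on a liposome array was brighter than every spot on a saline array, and spots of one array varied by 3.65% to 4.95% (coefficient of variation). Spots of one array are repeats of 1 sample and add no sample to the test. Over samples this probe read 13.7 and 12.2 on the liposome arrays, against 8.76 and 7.47 on the saline arrays, a change of +0.67 ± 0.14 or 1.60-fold, which did not pass when all probes were tested (limma adjusted p = 0.0592). The Fcgr2b call was lost without any one of the 4 arrays, at +0.64 to +0.86 and limma adjusted p = 0.0536 to 0.232, and under quantile normalization (+0.70, limma adjusted p = 0.0508).

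**Figure D2:**
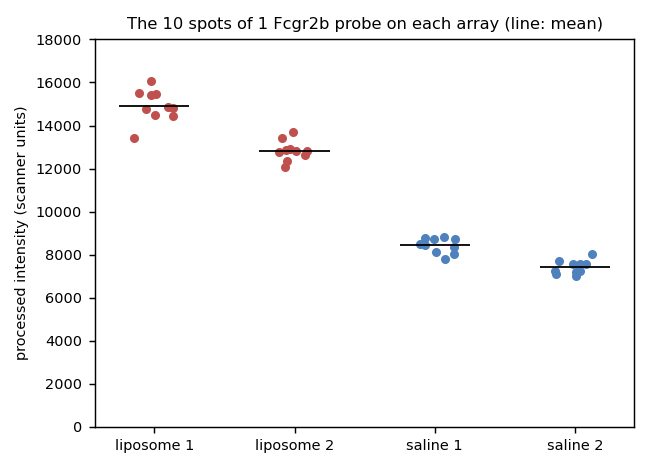
Processed intensity in scanner units (vertical axis, from 0) of each of the 10 spots of the Fcgr2b probe that lists no other gene, on liposome 1, liposome 2, saline 1 and saline 2 (horizontal axis), with a line at the mean of each array. The spots of the liposome arrays, at 12071 and above, lie over those of the saline arrays, at 8805 and below. Intensities are not scaled between arrays.

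Inpp5d encodes SHIP1, the phosphatase that Fcgr2b recruits. It read 5.49 and 5.86 on the liposome arrays, against 6.65 and 5.57 on the saline arrays. Here the groups overlapped, and the change was -0.10 ± 0.13 (limma adjusted p = 0.620). The dimmer probe, with 0.51 and 0.55 on the liposome arrays against 0.64 and 0.70 on the saline arrays, changed by -0.34 ± 0.11 and did not pass (limma adjusted p over all probes = 0.131). Without saline 1 the brighter probe's change turned to +0.03.

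Fcgrt encodes the heavy chain of the neonatal Fc receptor, which returns IgG and albumin from endosomes and belongs to neither side. It read 1.32 and 1.16 on the liposome arrays, against 1.70 and 1.85 on the saline arrays. The liposome arrays were lower without overlap, at -0.52 ± 0.12 or 1.43-fold, and the gene did not pass (limma adjusted p = 0.0715). Its partner chain B2m changed by +0.15 and did not pass either (limma adjusted p = 0.695).

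**Figure D3:**
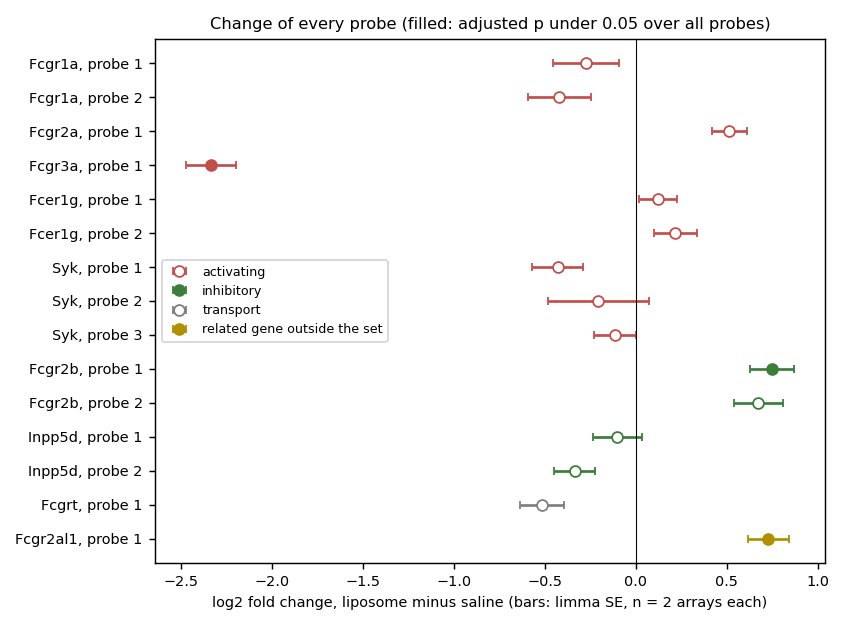
Log2 fold change, liposome minus saline, with limma SE bars (horizontal axis) of each of the 14 probes and the Fcgr2al1 probe (rows), coloured by role and filled where the adjusted p over all probes is under 0.05; probe 1 is the brightest of its gene. Fcgr3a at -2.34 stands apart on the left, and Fcgr2b and Fcgr2al1 lie at 0.67 to 0.75 on the right.

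Set side by side, the 5 activating genes (Fcgr1a, Fcgr2a, Fcgr3a, Fcer1g and Syk) had a mean log2 fold change of -0.48, with 1 that fell and 4 that did not pass. The 2 inhibitory genes, Fcgr2b and Inpp5d, had a mean of +0.32, with 1 that rose and 1 that did not pass. Within each array, the mean log2 level of the activating genes minus that of the inhibitory genes was 0.68 and 0.70 on the liposome arrays, against 1.43 and 1.56 on the saline arrays; its zero is arbitrary, since probes differ in brightness. The difference between groups was -0.81, or 1.75-fold, with a spread within groups of 0.06 (SD), and no p is given because the genes were chosen with results known. Without Fcgr3a, a choice made after seeing the data, the difference was -0.34, or 1.27-fold, with a spread of 0.04 (SD). In that difference Fcgr1a, Fcgr2a, Fcer1g and Syk changed by -0.27, +0.51, +0.12 and -0.43. Inpp5d changed by -0.10 and Fcgr2b by +0.75, so Fcgr2b had the largest change. The probes used for Fcgr2b and Fcgr2a also list Fcgr2al1.

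Fitted changes of the activating genes ran from -2.34 for Fcgr3a to +0.51 for Fcgr2a. Against Fcgr2b on the same array, Fcgr3a was lower in the liposome group by -3.09 log2 units or 8.50-fold, Fcgr1a by -1.02 and Fcgr2a by -0.24. The spread within groups of these differences was 0.22, 0.12 and 0.12 (SD). For Syk minus Inpp5d the difference was -0.33, with a spread of 0.16. With the receptors alone, Fcgr1a, Fcgr2a and Fcgr3a against Fcgr2b, the difference was -1.45.

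Of the genes, 4 are on chromosome 13, and by gene order in the reference assembly GRCr8, Fcgr2b, Fcgr3a, Fcgr2a and Fcgr2al1 follow each other. In that order the changes were +0.75, -2.34, +0.51 and +0.73, so the gene that fell lies between relatives whose values were higher on the liposome arrays. Of these relatives Fcgr2a did not pass. The probes used for Fcgr2b and Fcgr2a also list Fcgr2al1, so the higher values may share signal. The Fcgr2b probe that lists no other gene changed by +0.67 and did not pass. The nearest measured genes outside the run were Fcrla, a receptor-like protein of B cells, at -0.62 (limma adjusted p = 0.107), and Cfap126 at -0.55 (limma adjusted p = 0.252), and neither passed.

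The genes whose values over the 4 arrays lay closest to Fcgr2b, by Euclidean distance between mean-centred log2 values, were Atp6v0c (0.03), a subunit of the vacuolar proton pump, Nomo1 (0.05) and Idh2 (0.06), a mitochondrial isocitrate dehydrogenase. For Fcgr3a they were XM_218282 (0.23), the transcription factor gene Rfx2 (0.24) and RGD1564791 (0.25). XM_218282 and RGD1564791 were not well above background on either liposome array, so their distances rest partly on background values. Against the lowest measurable level they were at least 1.36-fold and 3.52-fold lower, and with normexp their fitted changes were -0.67 and -1.10. With 4 arrays in 2 groups, likeness is mostly a like fold change, as with Idh2 at +0.77 and Rfx2 at -2.20.

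Other Fc receptors and their chains mostly lay lower on the liposome arrays. Of 18 listed genes 13 were measured, and 1 fell, 0 rose and 12 did not pass, with 0 higher and 8 lower at an unadjusted limma p of 0.05. The median log2 fold change was -0.62, against -0.04 for all genes, and 11 of 13 were below 0. The gene that fell was Fcar, a receptor for IgA, at -1.49 and -1.22 log2 units relative to the 75th percentile on the liposome arrays, against -0.16 and -0.39 on the saline arrays (-1.08 ± 0.15, 2.12-fold, limma adjusted p = 0.0345). Fcer1a and Ms4a2, chains of the IgE receptor of mast cells and basophils, changed by -0.71 and -0.71 and did not pass (limma adjusted p = 0.120 and 0.136). Fcer2, Fcrla, Fcrl1 and Fcmr are known from B cells, which the depletion of MHC class II should largely remove and whose marker list had a median of -0.55, and the mast cell and basophil list had a median of -0.34; the part of these cells was not tested. Tyrobp, an ITAM chain of other myeloid receptors, changed by +0.04 (limma adjusted p = 0.799).

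Kinases and adaptors below the receptors were near the middle of all genes. Of 35 listed genes 33 were measured, with 1 that fell, 0 that rose and a median of -0.09, and at an unadjusted limma p of 0.05 there were 3 higher and 3 lower. The one that fell was Lat2, an adaptor that Syk-family kinases phosphorylate (-0.60 ± 0.11, limma adjusted p = 0.0476), and its call was lost under median scaling and quantile normalization (limma adjusted p = 0.0792 and 0.0536). Lyn and Fgr, Src family kinases that phosphorylate ITAMs in myeloid cells, changed by -0.09 and -0.32 and did not pass (limma adjusted p = 0.743 and 0.215).

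Among 30 genes listed as brakes of ITAM signalling 25 were measured, and 1 rose, 1 fell and 23 did not pass, with a median of -0.16. The list is broad, and Siglec1 in it is also among the macrophage markers used here. Lilrb4, an inhibitory receptor of myeloid cells, was at 4.56 and 4.69 log2 units relative to the 75th percentile on the liposome arrays, against 3.53 and 3.48 on the saline arrays. It rose 2.18-fold (+1.12 ± 0.10, limma adjusted p = 0.0181). Milr1, an inhibitory receptor of mast cells, fell (-0.57 ± 0.09, limma adjusted p = 0.0435), though not under median scaling (limma adjusted p = 0.0621). Cd300a and Sirpa, both inhibitory receptors, changed by +1.07 and +0.57 and did not pass (limma adjusted p = 0.0613 and 0.0947), and Ptpn6, the phosphatase SHP-1, changed by -0.17.

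For the actin and membrane steps of phagocytosis, 32 of 35 genes were measured, with a median of -0.02. Ezr, which ties actin to the membrane, fell (-0.72 ± 0.11, limma adjusted p = 0.0385). The other 31 did not pass, among them Marcks at +0.76 and Pak1 at -0.60. With median scaling 4 actin genes rose and 1 fell, and with normexp 3 rose and 4 fell. In the fit reported here 6 were higher and 5 lower at an unadjusted limma p of 0.05. In shares, 7.69% of other Fc receptor genes, 3.03% of kinases and adaptors, 8% of brakes and 3.12% of actin genes were called in that fit, against 8.89% of all genes. The calls of Fcar, Lat2, Milr1 and Ezr were lost without any one of the 4 arrays, and that of Lilrb4 without liposome 1, liposome 2 or saline 2.

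**Figure D4:**
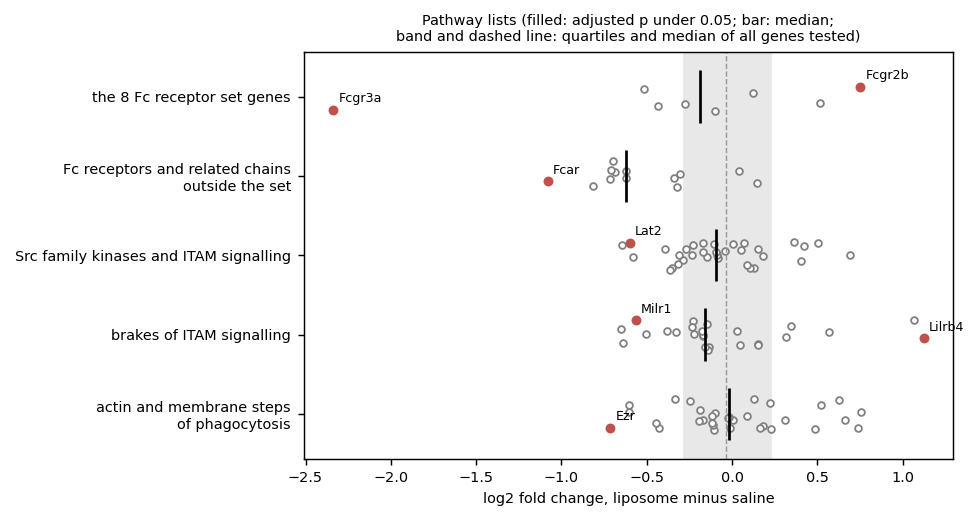
Log2 fold change, liposome minus saline (horizontal axis), of each measured gene in the set of 8 and in 4 pathway lists (rows), filled where the adjusted p is under 0.05, with a bar at each list's median. The grey band, from -0.28 to 0.23, runs from the lower to the upper quartile of all genes tested and the dashed line is their median of -0.04; other Fc receptors have a median of -0.62, to the left of the band.

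The bulk fraction holds several cell types, and fewer cells of a type and less RNA per cell cannot be told apart. Of the macrophage markers 15 of 18 were measured, and 2 rose and 8 fell, with summed levels of 105 and 94.8 times the 75th percentile on the liposome arrays, against 115 and 115 on the saline arrays. Their median change was -0.96, and Cd68, which did not pass, made up 56.8 and 54.5 of the liposome sums against 36.8 and 29.4 of the saline sums. The sum of the other macrophage markers was 47.7 and 40.4 on the liposome arrays, against 77.8 and 85.5 on the saline arrays. Cd5l, C1qc and Itgad, macrophage genes picked here for the size of their fall, changed by -2.13, -2.09 and -1.91, against -2.34 for Fcgr3a. The 2 macrophage markers that rose, Folr2 and Mertk, changed by +2.95 and +2.73, more in size than these falls. Mertk was too dim in the saline group to be measured there, so its rise is only known to be at least 6.38-fold. Of the neutrophil markers 15 of 18 were measured, and 10 fell and 0 rose, with sums of 212 and 229 on the liposome arrays, against 373 and 406 on the saline arrays. In mouse, neutrophils carry the relative of Fcgr3a, and in man they carry FCAR. The median neutrophil marker changed by -0.84, and Fcar by -1.08. Of 16 measured monocyte markers 4 fell and 0 rose, with sums of 246 and 259 on the liposome arrays against 350 and 308 on the saline arrays. Their median change was -0.38, with 4 above 0 and 12 below. These sums also lean on bright probes, the brightest being S100a4, which changed by -0.13 and did not pass (limma adjusted p = 0.434). The part of macrophages, neutrophils and monocytes in these results was not tested.

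Natural killer cells, which carry the human FCGR3A, gave 16 measured markers of 20, of which 0 passed and 1 lay lower at an unadjusted limma p of 0.05. Their summed level was 69.1 and 134 on the liposome arrays, against 117 and 284 on the saline arrays. Between arrays of the same title number the median marker was lower on the liposome array, by -1.18 for number 1 and -1.29 for number 2, and with the number as a block in the fit 13 of the 16 fell. Natural killer markers were higher on the arrays numbered 2 by a median of 1.43 log2 units among liposome and 1.59 among saline arrays, where Fcgr3a differed by 0.28 and 0.08. The part of natural killer cells in the Fcgr3a result was not tested.

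B cells carry Fcgr2b as their main Fc receptor and carry MHC class II, so the bead step should have removed most of them. Of 15 measured B cell markers of 17, 15 were lower on the liposome arrays, with 0 that passed and 9 lower at an unadjusted limma p of 0.05. Their sums were 56.2 and 43.8 on the liposome arrays, against 78.6 and 75.3 on the saline arrays, while Fcgr2b was higher on the liposome arrays. Their part in the Fcgr2b result was not tested. Of the remaining lists, T cell markers (16 measured) and mast cell and basophil markers (12 measured) had 0 that passed, with 1 and 3 lower at an unadjusted limma p of 0.05. Erythroid markers (10 measured) had 6 that fell, and dendritic cell markers (12 measured) had 4 that fell and 1 that rose.

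**Figure D5:**
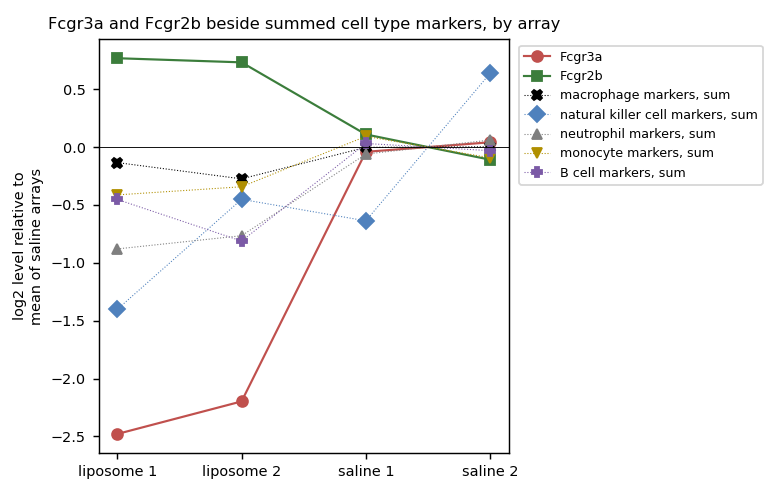
Log2 level relative to the mean of the saline arrays (vertical axis) on liposome 1, liposome 2, saline 1 and saline 2 (horizontal axis), for Fcgr3a and Fcgr2b (solid lines) and for the summed levels of 5 marker lists (dotted lines). On the liposome arrays Fcgr3a lies at -2.48 and -2.20, below all 5 lists, and Fcgr2b lies at 0.77 and 0.73, above all 5 lists. Neutrophil markers lie at -0.88 and -0.77 there. Natural killer markers lie at -1.40 and -0.45, against -0.64 and 0.64 on the saline arrays. Macrophage markers lie at -0.13 and -0.27 on the liposome arrays, a sum of which Cd68, higher on those arrays, is a large part.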

How the data were processed

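RNA of spleen cells was labelled with Cy3 from 0.2 ug and read on 4 one-colour Agilent arrays, 2 per group. Per the submitters' processing notes, Agilent Feature Extraction 10.7.3.1 gave the deposited intensity values on a linear scale. Per the file headers, the processed intensity was background-corrected within each array and not scaled between arrays. On each array 61.3% to 66.3% of 42877 spots were well above background and 0 were saturated. All 4 arrays lay on 1 slide read in 1 scan. The number of arrays limits the precision.

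Control spots and outlier spots (1.14% to 1.36%) were dropped, repeat spots were averaged on the log2 scale, and log2 intensity was set relative to the 75th percentile of its array. A probe was kept if both arrays of either group had it well above background, 278 probes lacking a value on some array were dropped, and the brightest probe stood for a gene. Of 30367 probes, 18006 took the reference's symbol by accession, 8186 kept the file's name and 4175 had none. For 12858 genes, limma 3.58.1 was run under R 4.3.3 (lmFit, eBayes, prior degrees of freedom 2.26, residual 2), with tables read by data.table version 1.17.8, with Benjamini-Hochberg adjustment over all genes. The fit was checked on simulated data. The 8 genes and the lists were chosen with earlier results of these data known. Text names the 8 genes, called genes of each list (up to 4 each way) and the 3 nearest genes of each called member; other genes named were chosen after their values were seen. Alternatives were median and quantile scaling, normexp with offset 50, other filters, the mean of a gene's probes, every probe tested, the title number as a block, and leaving out each array.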

Additional observations from a re-analysis of the deposited data

How the results depend on the processing

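Directions of Fcgr3a and Fcgr2b held under every alternative run, with log2 fold changes of -2.48 to -2.20 and 0.64 to 0.86. The number of genes called was 1720 with normexp, 1816 with the replicate block, 0 of 21971 without a filter on dim probes (3005 at an unadjusted limma p of 0.05, smallest adjusted p 0.143) and 0 to 499 with 1 array left out, against 1143. With median scaling it was 1294, 852 higher and 442 lower, against 621 and 522, and the median change of all genes was 0.05 in place of -0.04. The number of the 8 genes called was 1 with quantile normalization, 0 without the filter and 0 to 1 with 1 array left out. Fcgr2b lost its call with quantile normalization (0.70, limma adjusted p = 0.0508) and without the filter (0.75, limma adjusted p = 0.263). Fcgr3a lost its call without the filter (-2.34, limma adjusted p = 0.145). Without the filter many more genes were tested, and the SE was also larger. It was 0.17 in place of 0.14 for Fcgr3a and 0.15 in place of 0.12 for Fcgr2b. Fcgr2a passed with median scaling (0.59), normexp (0.51) and the filter on all arrays (0.51). The activating minus inhibitory difference was -0.70 when probes of a gene were averaged, -1.45 with the receptors alone, -0.34 without Fcgr3a (chosen after seeing the data) and -0.87 to -0.74 with 1 array left out. Inpp5d ran from -0.23 to 0.03 with 1 array left out, and turned to 0.026 without saline 1. The cause of these shifts was not tested. Same-numbered samples deviated together at a correlation of 0.355 over genes, and the titles carry exp1 and exp2 in each group, a tag that no label explains, so with 2 pairs the pairing was not taken as given. The replicate block changed no call among the 8 genes, and called 4 in place of 1 of the other Fc receptor genes and 13 in place of 0 of the natural killer markers as lower. List counts moved too: with median scaling 4 actin genes, 2 kinases and adaptors and 2 brakes rose, in place of 0, 0 and 1, and with normexp 4 actin genes fell in place of 1. The log2 fold change of Fcgr2b under the replicate block was 0.75 and of Fcgr3a -2.34. With 2 arrays per group, a p that misses the threshold does not show that a gene did not change.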
